A study of Mus musculus with 8 samples.

Results

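Hmox1, Keap1, Txnrd1 and Nnt, genes of the Nrf2 antioxidant pathway and of mitochondrial redox balance, were examined in astrocytes with and without connexin43. These 4 of the 5822 genes named on the array were selected on their Cx43 KO minus WT log ratios in earlier results of the same arrays, so that their genotype differences are given as a description, without a test. Cultures of cortical astrocytes were prepared from neonatal mice, either wild type (WT) or null for connexin43 (Cx43 KO), the protein that forms most gap junctions between astrocytes. RNA of each culture was hybridised together with 1 reference pool of RNA from adult male and female mice (spleen, stomach, lung, liver, kidney, heart, brain, aorta and gonads), on 4 arrays per genotype. The arrays are numbered 1 to 4, and each lot batch, as the labels call it, held 1 WT and 1 Cx43 KO array with its number. The strain is given as C57BL/6j for WT 1 and its pool, and the label of the cultures is incomplete for the other 7 arrays. The title of Cx43 KO 3 names Cx43 without the word KO. The labels do not say whether arrays of a genotype came from separate cultures or animals, so the spread between them may be technical.

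Nrf2 (gene Nfe2l2) is a transcription factor that turns on genes of detoxification, glutathione synthesis and NADPH supply when cells meet oxidants or electrophiles. In resting cells Keap1 binds Nrf2 and hands it to a Cul3 ubiquitin ligase for degradation, and modification of cysteines of Keap1 lets Nrf2 escape. Hmox1, haem oxygenase 1, splits haem into biliverdin, iron and carbon monoxide, and Txnrd1, a selenoprotein of the cytosol, uses NADPH to keep thioredoxin reduced; both are known Nrf2 targets. In brain, astrocytes are held to be the main site of Nrf2 activity. Nnt, a proton-driven transhydrogenase of the inner mitochondrial membrane, makes NADPH from NADH and so feeds glutathione and thioredoxin within the mitochondrion. The C57BL/6J substrain is known to carry a deletion within Nnt; the part of the transcript covered by the array feature was not analysed here.

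Each value is a log ratio of astrocytes over pool, read as log2 and centred on the median of its array, so that 0 is the median feature. Between 36.6% and 57.6% of the 9568 features carried a ratio on an array; an exact 0 was read as no ratio. The direction was taken from markers: all 4 tested astrocyte markers lay above 0 (median 1.39; Fabp7, of radial glia and astrocytes, averaged 4.09) and all 6 tested genes of adult tissues lay below it (median -3.40), and with the opposite direction every sign below would turn. Of 17 astrocyte markers 6 had a feature, of which the glutamate transporter gene Slc1a2 had a ratio on 0 arrays. The connexin43 gene itself, Gja1, is named for 0 features and not analysed here, so that the labels of the genotypes have no check in its transcript. Cx43 KO 4 stood apart from the other arrays: of 2596 genes and unnamed features with 8 values, it was the highest or the lowest array in 43.0%, against 18.3% to 28.0% for the other 7. For the members, and for named list genes whose difference rests on it, values are given with and without this array. In such bulk RNA, fewer cells of a type and less RNA per cell cannot be told apart.

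The level of the 4 genes relative to the adult tissues, taken as the mean of both genotypes, was tested against 0. It is another contrast than the genotype difference, but it uses the same array values. Hmox1 lay furthest above the pool, at 1.90 on the log2 scale (95% interval 1.49 to 2.32, limma adjusted p = 8.2e-06), a 3.74-fold ratio, with all 8 arrays above 0. Txnrd1 was moderately above it, at 0.40 (0.20 to 0.60, adjusted p = 0.0024), a 1.32-fold ratio, again on all 8 arrays. Keap1 was not called apart from the array median (-0.12, interval -0.32 to 0.07, adjusted p = 0.240): 4 arrays lay above 0 and 4 below, and without centring the arrays its level was 0.10. Nnt was below the pool, at -0.52 (-0.81 to -0.22, adjusted p = 0.0062), on 5 of the 7 arrays with a ratio. Its WT mean was 0.09 and its Cx43 KO mean -1.12, so that this level rests on the Cx43 KO arrays. Nnt was selected on the difference of those arrays from WT, so the adjusted p of its level is not independent support. The Nnt call was lost without centring (adjusted p = 0.068) and with exact 0 kept as a ratio of 0 (adjusted p = 0.204). Such calls were common on these arrays: 34.7% of the 3505 genes and unnamed features tested were called above the pool and 33.7% below it, 68.4% in all.

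**Figure D1:**
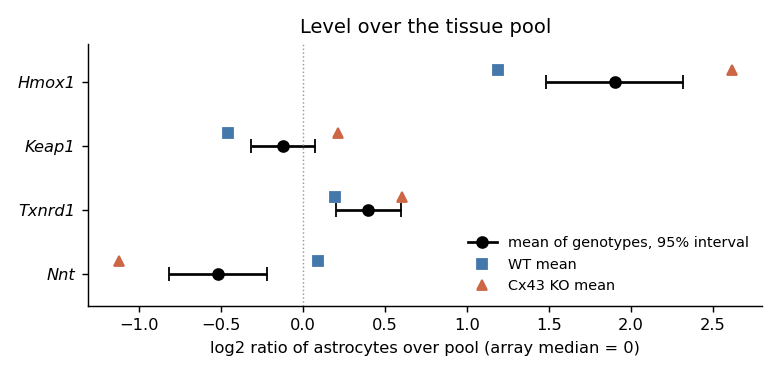
Level of the 4 genes over the tissue pool on the log2 scale, as the mean of both genotypes with its 95% interval from limma (black circles and bars), with the WT mean (squares) and Cx43 KO mean (triangles) above each. Hmox1 (1.90) and Txnrd1 (0.40) have intervals above 0, Nnt (-0.52) below 0, and that of Keap1 (-0.12) spans 0; WT and Cx43 KO means of Keap1 and of Nnt fall on opposite sides of 0.

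For Hmox1 every Cx43 KO array lay above every WT array. Its log2 ratio was 1.00, 1.51, 1.33 and 0.91 on the WT arrays 1 to 4. Cx43 KO 1 to 4 had values of 2.14, 2.23, 2.18 and 3.92. Of the Cx43 KO arrays, 3 lay close together and Cx43 KO 4 lay far above them. Cx43 KO averaged 2.62 ± 0.87 (SD, n = 4) against 1.19 ± 0.28 (SD, n = 4) for WT, which is 1.43 higher (SE 0.38), or 2.69-fold. Within lot batches 1 to 4 the difference was 1.14, 0.72, 0.84 and 3.01. The sign was the same in all 4, as it must be where the genotypes do not overlap. Lot batch 4, which holds Cx43 KO 4, gave by far the widest distance. Without Cx43 KO 4, the most extreme array of this gene, the difference was 0.99, a 1.99-fold ratio, and the SD of the remaining 3 Cx43 KO arrays was 0.046. Without lot batch 4 it was 0.90. Relative to the pool and after centring, WT cultures held 1.88 to 2.84 times the Hmox1 signal of the tissue pool, Cx43 KO 1 to 3 held 4.40 to 4.69 times, and Cx43 KO 4 held 15.2 times.

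**Figure D2:**
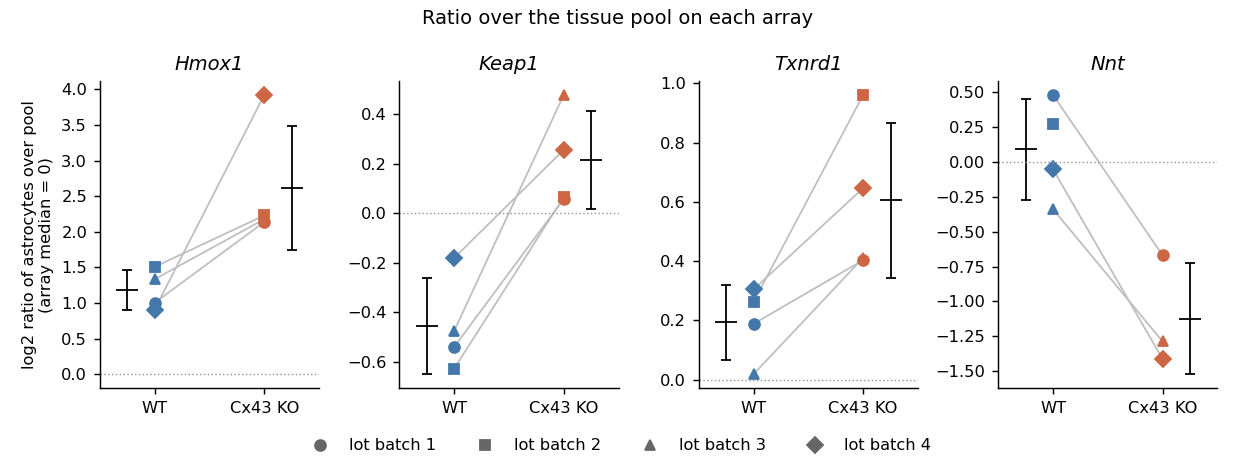
Log2 ratio of astrocytes over pool on each array for Hmox1, Keap1, Txnrd1 and Nnt, with 1 marker shape per lot batch, grey lines joining the arrays of a lot batch, and the mean ± SD of each genotype beside the points (n = 4, and 3 for Nnt in Cx43 KO). In each panel the genotypes do not overlap; the scales of the panels differ, and Cx43 KO 4 stands apart for Hmox1 at 3.92.

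Macrophages and microglia also make Hmox1, and their markers varied between the arrays. Of 22 such markers 12 had a feature and 6 had a ratio on all arrays (Tyrobp, Cd68, Lgmn, Itgam, Rac2 and Cd53), while Fcer1g, Ctss and Ptprc had a ratio on 0 arrays. The mean log2 ratio of these 6 ran from 0.50 to 1.22 in WT and from 0.06 to 2.10 in Cx43 KO. The highest value was on Cx43 KO 4, where 4 of the 6 markers peaked, Lgmn and Tyrobp being the other two. On the same array 3 astrocyte markers (Aldoc, Fabp7 and Ttyh1) averaged 0.46, against 1.75 to 2.20 on the other 7. On Cx43 KO 1 and 2 the microglial mean was the lowest of all arrays, 0.06 and 0.27, but the markers differed. Tyrobp, Cd68 and Itgam lay below every WT array on both. Lgmn on Cx43 KO 1 (1.58) and Rac2 on Cx43 KO 2 (0.27) lay above every WT array. Hmox1 lay above every WT array on both. The part of microglia and macrophages in the Hmox1 level of any array, or in its genotype difference, was not tested. Fibroblast, meningeal and mural markers, 4 with 8 values and all collagens, averaged 1.82 on Cx43 KO 4 against -1.58 to 1.46 on the others. These markers differed too. Col1a1, Col3a1 and Col6a1 peaked on Cx43 KO 4, while Col6a3 was -0.49 there and 0.91 on WT 1. Lum and Fmod, which lacked a ratio on some arrays, did not peak there. Lum was -0.25 on Cx43 KO 4 and 1.15 on WT 1, and Fmod was 2.95 on Cx43 KO 4 and 4.22 on Cx43 KO 2.

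**Figure D3:**
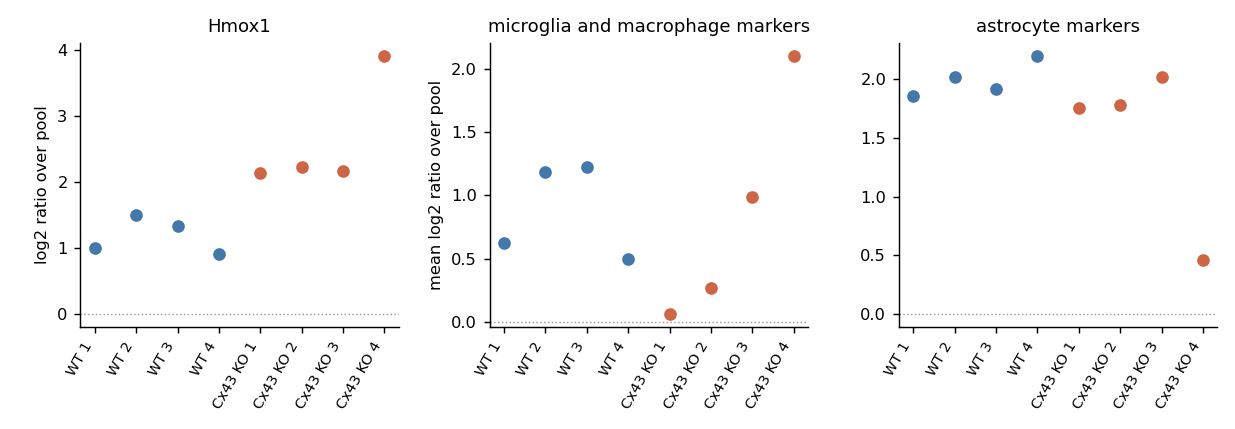
Log2 ratio over the pool on each of the 8 arrays for Hmox1 (left), the mean of 6 microglia and macrophage markers (middle) and the mean of 3 astrocyte markers (right), WT in blue and Cx43 KO in orange. Cx43 KO 4 is highest for Hmox1 (3.92) and the microglial mean (2.10) and lowest for the astrocyte mean (0.46). Cx43 KO 1 and 2 are lowest for the microglial mean, and their Hmox1 values lie above all WT arrays. The part of these cells in Hmox1 was not tested.

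Keap1, the repressor of Nrf2, lay on either side of the pool in the 2 genotypes. Its log2 ratio was -0.54, -0.63, -0.48 and -0.18 on the WT arrays 1 to 4. Cx43 KO 1 to 4 had values of 0.06, 0.06, 0.48 and 0.26. The WT arrays were all below the array median and the Cx43 KO arrays all above it, with WT 4 nearest to the other genotype. The means were -0.46 ± 0.19 (SD, n = 4) and 0.21 ± 0.20 (SD, n = 4), a difference of 0.67 (SE 0.18), or 1.59-fold. Within lot batches 1 to 4 it was 0.60, 0.69, 0.95 and 0.44. Without WT 4, its most extreme array, the difference was 0.76, and without Cx43 KO 4 it was 0.66.

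Txnrd1 showed the smallest distance of the 4. Its log2 ratio was 0.19, 0.26, 0.02 and 0.30 on the WT arrays 1 to 4. Cx43 KO 1 to 4 had values of 0.40, 0.96, 0.41 and 0.65. The genotypes came close without overlapping, with 0.10 between WT 4 and Cx43 KO 1. The means were 0.19 ± 0.13 (SD, n = 4) and 0.61 ± 0.26 (SD, n = 4), a difference of 0.41 (SE 0.18), or 1.33-fold. Within lot batches 1 to 4 it was 0.21, 0.70, 0.39 and 0.34. Without Cx43 KO 2, its most extreme array, the difference was 0.29, a 1.23-fold ratio, and without Cx43 KO 4 it was 0.40.

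Txnrd1 and Keap1 had promoter sequence in the RefSeq table used (GRCm38.p6), and Hmox1 and Nnt did not. Nrf2 with its small Maf partners binds the antioxidant response element, searched here on both strands as TGACNNNGC, with N for any base. Of the 3 annotated start sites of Txnrd1, the 250 bases before the second held a match, on the strand opposite to the gene, from 92 to 84 bases before the start. It is shown because Txnrd1 is the member whose promoter window holds this motif, with the match in capitals (chr10:82858956-82859205, plus strand):
Txnrd1 second start: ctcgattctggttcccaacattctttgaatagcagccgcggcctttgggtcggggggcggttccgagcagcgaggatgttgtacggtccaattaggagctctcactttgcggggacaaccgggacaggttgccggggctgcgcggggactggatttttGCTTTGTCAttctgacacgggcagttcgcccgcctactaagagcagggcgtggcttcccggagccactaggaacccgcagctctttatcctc
Read on the other strand the match is TGACAAAGC. The motif was in 10.2% of 32851 promoter windows of that length, and in 0 of the other 2 windows of Txnrd1 and the 1 of Keap1. Counted by gene, 11.5% of 27025 genes had a match in 1 window or more. A gene with 3 windows, such as Txnrd1, has more sequence in which a match can fall. A match in these letters is a description and does not show that Nrf2 bound there.

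Nnt went the other way from the other members. Its log2 ratio was 0.48, 0.27, -0.34 and -0.05 on the WT arrays 1 to 4. Of the Cx43 KO arrays, numbers 1, 3 and 4 had values of -0.67, -1.29 and -1.41. Cx43 KO 2 is listed at 0 for Nnt, on an array with ratios for 39.7% of features, and was left out as missing. The 3 Cx43 KO arrays all lay below the lowest WT array, WT 3, with 0.33 between them. The means were 0.09 ± 0.36 (SD, n = 4) and -1.12 ± 0.40 (SD, n = 3), a difference of -1.21 (SE 0.26), so that the WT ratio was 2.32 times that of Cx43 KO. Within lot batches 1, 3 and 4 the difference was -1.15, -0.95 and -1.36. Without Cx43 KO 1, its most extreme array, it was -1.44, without Cx43 KO 4 it was -1.07, and with the exact 0 of Cx43 KO 2 kept as a ratio of 0 it was -0.93.

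**Figure D4:**
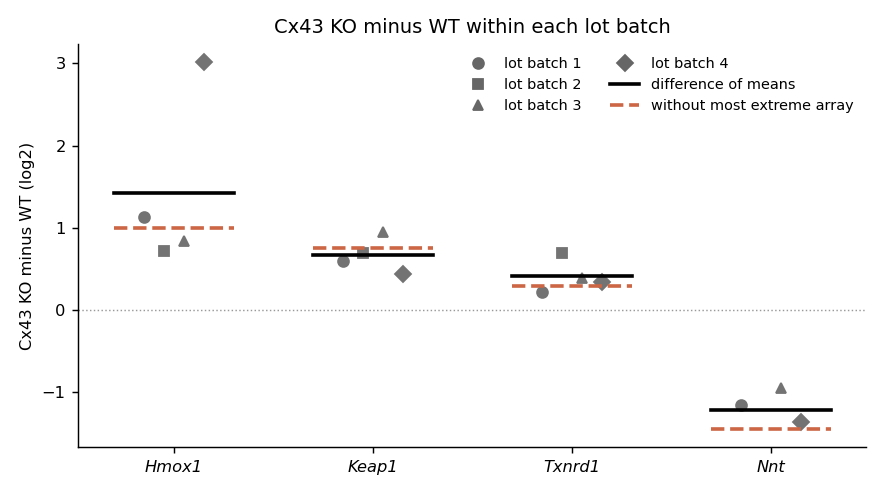
Difference of Cx43 KO from WT (log2) within each lot batch (1 marker shape per lot batch) for the 4 genes, with the difference of the genotype means (black line) and the same without the gene's most extreme array (dashed line). Hmox1, Keap1 and Txnrd1 are above 0 in all 4 lot batches and Nnt is below 0 in the 3 with both arrays; only for Hmox1 does 1 lot batch, at 3.01, lie far from the others.

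For all 4 genes the genotypes did not overlap. Within every lot batch with both arrays the sign was therefore bound to be that of the mean, and adds nothing to the separation. Over the whole table, 85 of 3505 genes and unnamed features (2.43%) had every Cx43 KO value above every WT value and 98 (2.8%) the reverse. Without Cx43 KO 4, which leaves fewer values and fewer genes to compare, these were 213 (6.78%) and 166 (5.28%) of 3143. Limma called 0 of the 3505 (0%) at an adjusted p of 0.05, and 263 (7.5%) lay below an unadjusted p of 0.05. Because the members were picked for this contrast, their separation is not independent support for it.

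Other genes of the same pathways were counted from 6 lists that leave out the 4 members. Of 171 listed genes 69 had a feature and 41 were tested. In Cx43 KO 21 were higher and 20 lower, with a median difference of 0.02. Of the 3501 genes and unnamed features tested other than the members, 1842 were higher and 1659 lower, with a median of 0.02 too. Limma called 0 of the 41 (smallest adjusted p = 0.655; 1 at an unadjusted p under 0.05, Gatm), and 0 had genotypes that did not overlap. Without Cx43 KO 4, 18 were higher and 23 lower (median -0.063, 5 with the sign turned). For 5 of the 41 the genotypes then did not overlap: Glud1, Blvra, Hebp1, Steap3 and Tfrc, the last with 2 Cx43 KO values. Of the 3143 genes and unnamed features tested without that array, 6.78% were higher without overlap and 5.28% lower. Tfrc is not among those 3143, and the 5 genes are named as a description. Where a gene of these lists is named below, its difference did not pass the test.

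Among the regulators of Nrf2, 2 of 16 were tested. Nfe2l2, which encodes Nrf2, was well above the pool in both genotypes, with a level of 1.46 (SE 0.13, adjusted p = 3.5e-06). Its log2 ratio was 1.86, 0.97, 1.11 and 1.57 on the WT arrays 1 to 4. Cx43 KO 1 to 4 had values of 1.51, 1.81, 1.80 and 1.00. The genotypes overlapped fully and differed by 0.16 (SE 0.26, adjusted p = 0.922), a sign that turned without lot batch 2 (-0.074) or lot batch 3 (-0.024) and with quantile (-0.018) or scale (-0.073) normalization. Leaving out Cx43 KO 4 gave 0.33. Btrc, an adaptor of another ligase that degrades Nrf2, differed by 0.58 (SE 0.42), with 2.57 on Cx43 KO 4 and 0.29 to 0.88 on the other 7 arrays. Without Cx43 KO 4 its difference was 0.08. Cul3, Maff, Mafg, Park7, Pgam5 and Csnk2a1 had a feature but a ratio on 0 arrays.

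Of 37 enzymes and transporters listed as Nrf2 targets, 3 were tested, with 1 higher and 2 lower and 0 called. Nqo1, a quinone reductase often used as a readout of Nrf2, is named here after its values were seen. It was -0.24, -0.73, -0.55 and -1.57 on the WT arrays 1 to 4. The Cx43 KO arrays had -1.09, -1.31, -0.57 and -1.62, overlapping with WT, a difference of -0.37 (SE 0.31, adjusted p = 0.804), and of -0.22 without Cx43 KO 4, -0.20 without WT 1, -0.64 without WT 4 and -0.57 without Cx43 KO 3. The glutathione transferase Gsta3, far below the pool at a level of -2.93, differed by -0.28 (SE 0.22), and by 0.047 with quantile and 0.17 with scale normalization. Abcc1, an exporter of glutathione conjugates, differed by 0.51 (SE 0.32) and by 0.13 without Cx43 KO 4, where it reached 2.28 against 0.51 to 0.86 on the others.

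Glutathione and thioredoxin genes were 6 higher and 3 lower of 9 tested (36 listed), with a median difference of 0.06. Gclm, the regulatory subunit of the enzyme that limits glutathione synthesis and a known Nrf2 target, was above the pool in both genotypes (level 1.11, SE 0.11). Cx43 KO averaged 1.24 ± 0.25 (SD, n = 4) and WT 0.97 ± 0.37 (SD, n = 4), which differ by 0.27 (SE 0.22, adjusted p = 0.803). The Gclm difference was 0.15 without WT 1, 0.42 without WT 2, and 0.092 and 0.085 with quantile and scale normalization. Selenop, a secreted selenium carrier, differed by -0.57 (SE 0.28, adjusted p = 0.685). For the cytosolic supply of NADPH, 3 of 14 genes were tested: Pgd, of the pentose phosphate pathway, differed by 0.47 (SE 0.34) and the folate enzyme Mthfd1 by -0.18 (SE 0.38), both measured on 3 Cx43 KO arrays. Pgd had ratios of 0.69 and 1.42 on Cx43 KO 1 and 3 and its highest, 2.35, on Cx43 KO 4, and without that array its difference was 0.034. Mthfd1 had 1.20 and 0.58 on Cx43 KO 2 and 3 and its lowest, -0.39, on Cx43 KO 4, and without that array its sign turned, to 0.25; without WT 1 it was -0.38 and without WT 2 -0.043.

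Mitochondrial redox and NADPH genes, the setting of Nnt, were 7 higher and 4 lower of 11 tested (31 listed), with a median difference of 0.03 against -1.21 for Nnt. Most lay below the tissue pool: limma called 8 of the 11 below it and 2 above, against 33.7% below and 34.7% above over the 3505 tested. For Nnt itself the WT mean was 0.09, and only the Cx43 KO mean lay below the pool. Prdx3, the peroxiredoxin of the mitochondrial matrix and named after its values were seen, had a level of -0.74 (SE 0.09) and a genotype difference of 0.04 (SE 0.17). Gatm, a mitochondrial enzyme of creatine synthesis, differed by -0.89 (SE 0.38, adjusted p = 0.655), with -1.96 and -1.69 on Cx43 KO 1 and 2 but -0.35 and -0.41 on Cx43 KO 3 and 4. Without Cx43 KO 4 its difference was -1.12. Glud1, glutamate dehydrogenase, differed by 0.52 (SE 0.28, adjusted p = 0.706), measured on 3 WT arrays, and by 0.70 without Cx43 KO 4.

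Haem and iron genes, the setting of Hmox1, were 4 higher and 9 lower of 13 tested (37 listed), with a median of -0.13 against 1.43 for Hmox1. Blvra, the biliverdin reductase that acts after haem oxygenase, was near the pool and differed by -0.07 (SE 0.39); it is named after its values were seen. Its 4 WT values ran from -0.40 to 0.11, and the Cx43 KO arrays had -0.76, -0.44, -0.53 and 1.25. Its difference without Cx43 KO 4 was -0.52, and the genotypes then did not overlap. Hebp1, a haem-binding protein, differed by -0.38 (SE 0.18, adjusted p = 0.666), and by -0.47 without Cx43 KO 4. Steap3, a ferrireductase of the transferrin cycle, differed by -0.56 (SE 0.30, adjusted p = 0.696). Its values were 1.11, 0.97, 0.75 and 0.89 on the WT arrays 1 to 4. Cx43 KO 1 to 4 had values of 0.09, 0.01, -0.03 and 1.38. Without Cx43 KO 4, the array of this gene far from the other Cx43 KO arrays, the difference was -0.91 and not called (limma adjusted p = 0.0747). In the same setting the limma adjusted p was 0.299 for Gatm, 0.314 for Glud1 and 0.334 for Hebp1. Hmox2, the constitutive haem oxygenase, had a ratio on 3 WT and 2 Cx43 KO arrays and was not tested.

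**Figure D5:**
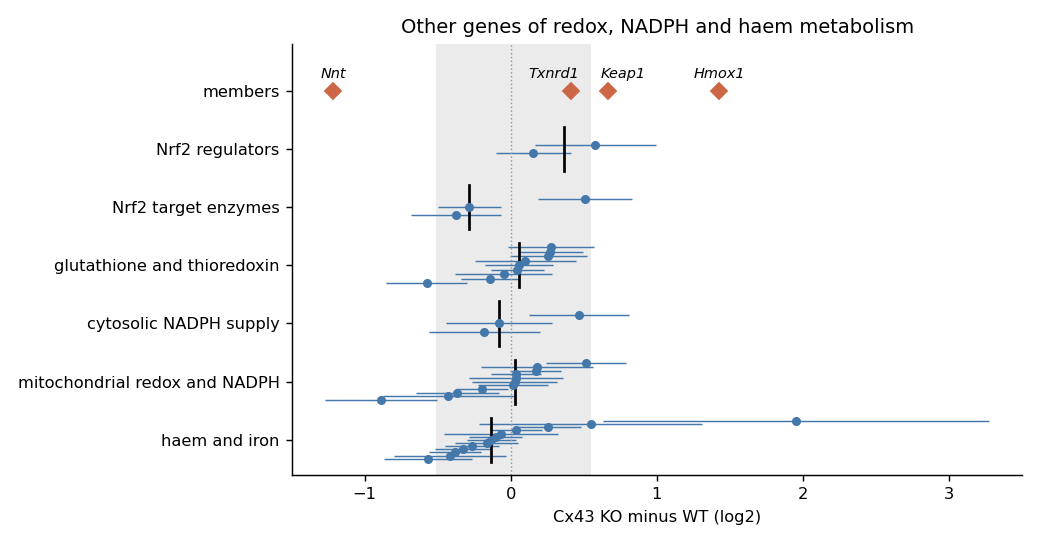
Difference of Cx43 KO from WT (log2) for the 41 tested genes of the 6 lists (blue circles with their SE from limma, vertical bars at each list's median) and for the 4 members (orange diamonds); the grey band spans the 5th to the 95th percentile of all 3505 differences, -0.50 to 0.54. Nnt, Keap1 and Hmox1 lie outside the band and Txnrd1 within it. The members were chosen on these differences, so their place against the band is a description and no test. List medians lie between -0.28 and 0.37. Lcn2, at 1.95 and at 0.53 without Cx43 KO 4, is the haem and iron gene farthest to the right.

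The genes whose pattern over the arrays was most like each member were taken from the named genes with 8 values, by Pearson r. With 2162 candidates per member (2163 for Nnt) a high r is found for any pattern, the arrays share 1 pool, and the genotypes of each member do not overlap, so r partly follows the genotype; no p is given. For Hmox1 over 8 arrays they were the kinase Slk (r = 0.95, Spearman rho = 0.90), the phosphatidylinositol kinase Pi4k2a (r = 0.94, rho = 0.93) and the interferon signalling factor Irf9 (r = 0.93, rho = 0.90). Without Cx43 KO 4 and WT 4, the arrays farthest from the median of Hmox1, r was 0.74, 0.77 and 0.84. For Keap1 they were the amyloid precursor-like Aplp2 (r = 0.92, rho = 0.88), Itpripl2 (r = 0.91, rho = 0.88) and Sel1l, of the degradation of misfolded proteins in the endoplasmic reticulum (r = 0.91, rho = 0.83), with r = 0.87, 0.86 and 0.89 without WT 2 and Cx43 KO 3.

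For Txnrd1 the likeness was weaker and rested more on single arrays. The nearest genes were the receptor Acvrl1 (r = 0.88, rho = 0.57), the chromatin reader Zmynd8 (r = 0.87, rho = 0.64) and the transfer RNA methyltransferase subunit Trmt6 (r = 0.85, rho = 0.67), with r = 0.66, 0.34 and 0.57 without Cx43 KO 2 and WT 3. For Nnt, over 7 arrays, they were Mtres1, a mitochondrial RNA-binding protein (r = 0.96, rho = 1), the cell cycle gene Cdca3 (r = 0.96, rho = 0.93) and Rhobtb2 (r = 0.95, rho = 0.93). Without Cx43 KO 3 and 4, r was 0.96, 0.86 and 0.96. With the genotype means taken out, r lay between 0.62 for Trmt6 with Txnrd1 and 0.92 for Acvrl1 with Txnrd1 and Slk with Hmox1.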

How the data were processed

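The deposited values are log ratios of the 2 channels of each array, treated as log2; per the labels, channel 2 held astrocyte RNA and channel 1 the tissue pool. Log base, dyes, scanner settings and any background or within-array correction were not stated in the sources used here. Another base would rescale every difference and leave signs and p-values. Exact 0 was read as missing, each array was centred on its median, and features with 1 symbol were averaged per gene; each of the 4 members has 1 feature. The 3505 genes and unnamed features that had 3 or more values per genotype entered limma 3.58.1 (R 4.3.3; lmFit and eBayes, two-sided, Benjamini-Hochberg, threshold 0.05), genotype as the only term, and all SEs and adjusted p-values come from that fit. The level is the mean of the genotype means against 0 and leaves out the pool's own spread. Arrays give no counts here, and their number limits the precision.

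The members and gene lists were chosen with earlier results of these data known. Named genes are the members, list genes whose genotypes do not overlap or otherwise the 2 with the smallest p of each list, and the 3 genes most like each member. The most extreme array is the one farthest from the mean of its genotype's other arrays. Lot batch pairs the arrays per the labels; deviations of paired arrays from their genotype means correlated at -0.18, 0.19, -0.13 and -0.19 across 2596 genes and features. Any 2 arrays correlated at 0.67 to 0.92. Alternatives were other normalizations, no centring, exact 0 kept, other filters, array weights, the lot batch as a block and arrays left out. The fit was tested on simulated data.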

Additional observations from a re-analysis of the deposited data

Results flagged for a closer look

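Of 28 groups of 4 values examined, for the members and the named genes of the lists, 4 held an array far from the other 3 of its genotype (Dixon's test at 95%). The array was Cx43 KO 4 each time: Hmox1 at 3.92 with the nearest Cx43 KO array at 2.23, Abcc1 at 2.28 (nearest 0.86), Steap3 at 1.38 (nearest 0.09) and, on the low side, Glud1 at 1.19 (nearest 1.86). Chance gives about 1 in 20 for independent groups that were not selected. These groups share the same arrays, and their genes were chosen with the genotype contrast known, so the count is a description. Genes named after their values were seen were not among the 28 groups. Of these, Trf had its far value on another array, with 0.01 on Cx43 KO 2 and -4.16, -3.60 and -3.88 on Cx43 KO 1, 3 and 4.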

How the results depend on the processing

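The differences of Hmox1, Keap1 and Txnrd1 kept their sign in 21 alternatives each and that of Nnt in 19, all moving by less than the pooled SD between arrays. As the genotypes of each member do not overlap, leaving out arrays could not turn a sign. The block and exact 0 kept return the same difference for Hmox1, Keap1 and Txnrd1, which have a ratio on every array. The kept signs are therefore a description and not independent support. Leaving out arrays gave 0.90 to 1.66 for Hmox1, 0.58 to 0.76 for Keap1, 0.29 to 0.48 for Txnrd1 and -1.44 to -1.07 for Nnt. Without centring, which moved the median level of all genes from 0.02 to 0.23, the level of Keap1 was 0.10 and that of Nnt -0.31, no longer called; with exact 0 kept the level of Nnt was -0.38 and not called. The levels of Hmox1 and Txnrd1 stayed called in 21 alternatives each. The difference of Nfe2l2 turned to -0.018 with quantile and -0.073 with scale normalization, and that of Gsta3 to 0.047 and 0.17; leaving out arrays gave -0.074 to 0.39 for Nfe2l2, with -0.074 and -0.024 without lot batches 2 and 3. The cause was not tested. Limma called 2 genes or features between genotypes with array weights, and 0 to 4 when arrays were left out, with 4 without Cx43 KO 4 and 1 without WT 2. Blocking on the lot batch (replicate block) it called 0 (195 at an unadjusted p of 0.05) and called 2266 levels over the pool (64.7%) against 2397 (68.4%) without the block; the level calls of the 4 members, and those of the 12 list genes for which the block was fitted between genotypes, did not change. The list genes' values without each array were added after seeing the data. Nnt could not be fitted without 1 of its Cx43 KO arrays, where 2 values remain.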

Other observations

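Iron genes held the widest scatter among the lists, and these genes are named after their values were seen. Lcn2, lipocalin 2, which binds iron-carrying siderophores, was -2.54, -2.10 and -1.05 on WT 1, 3 and 4 and -2.45, -1.31, -0.33 and 4.32 on Cx43 KO 1 to 4. Trf, transferrin, was -3.31, -3.75, -3.46 and -3.29 on the WT arrays 1 to 4. The Cx43 KO arrays had -4.16, 0.01, -3.60 and -3.88, so that Cx43 KO 2 alone was near the pool. Of the 32 list genes with 8 values, 18 (56.25%) had their highest or lowest value on Cx43 KO 4, against 43.0% of all 2596 genes and unnamed features with 8 values.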
